A study of Mus musculus with 8 samples.

Results

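The comparison described here sets mice with chemical colitis that received Kuiyangling, a herbal formula given into the rectum, against mice with the same colitis that received saline. It uses 4 of the 8 samples of the study and covers the 17353 genes of the deposited count table. All animals were male wild-type C57BL/6J mice, and their colonic mucosa was collected on day 7. The Kuiyangling group drank water with 3% dextran sulfate sodium (DSS) and received Kuiyangling at 10 g/kg by enema. The mesalazine group drank the same DSS and was given an enema of mesalazine (a standard colitis drug) at 50 mg/kg. The DSS model group drank the same DSS and received a saline enema, and the control group received a saline enema and no DSS. Every enema had a volume of 0.2 ml. Each group had 2 animals, each with 1 library of polyadenylated RNA, and the labels give no group a genetic change. Mesalazine and control libraries served to estimate the spread between animals and are set beside Kuiyangling where they help to read a value.

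DSS is toxic to the colonic epithelium. Once the epithelial barrier is broken, bacteria reach the tissue, resident cells release cytokines and chemokines, and neutrophils and monocytes enter from the blood. Repair then depends on stem cells at the crypt base, on Wnt signals that keep them dividing, and on the differentiated absorptive and mucus-secreting cells that they renew. The study asked whether Kuiyangling lowers the inflammation and the release of neutrophil extracellular traps, which are webs of chromatin and granule proteins cast out by neutrophils.

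The Kuiyangling libraries held 16015937 and 17622452 counts and the DSS model libraries 16930854 and 15560946, always given as replicate 1 and then replicate 2. Values are in CPM, the count scaled to a common library size, here with TMM, a scaling that assumes most genes do not differ, and 3 counts, taken as the floor, came to between 0.156 and 0.199 CPM in these 4 libraries. Genes that mark the colonic epithelium were abundant in all 4 libraries. The colonocyte carbonic anhydrase Car1 stood at 12515 and 9178 CPM with Kuiyangling, against 7815 and 9119 CPM in the DSS model. The gel-forming mucin Muc2 stood at 6459.8 and 5050.0 CPM with Kuiyangling, against 9660.3 and 7499 CPM in the DSS model. Libraries also differed in how expression varied with gene length. Relative to the mean of all libraries, expression was correlated with gene length across genes at a Spearman's rho of -0.02 and 0.39 with Kuiyangling and of -0.10 and -0.43 in the DSS model. The log2 change was thus correlated with length over the 13381 tested genes at a rho of 0.397, where genes do not count as independent replicates, and its median was -0.24 in the shortest of 5 equal length bins and 0.20 in the longest. After a correction for length the rho was 0.019.

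**Figure D1:**
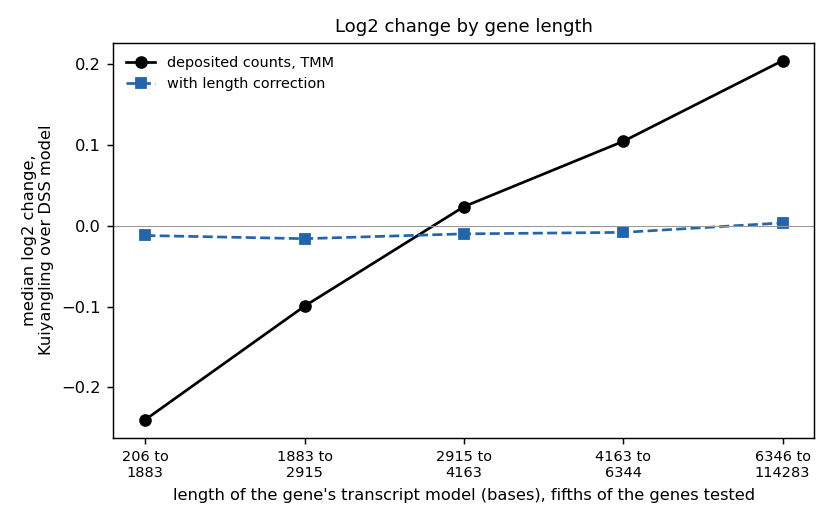
Median log2 change of Kuiyangling over the DSS model (vertical axis) for the genes tested, split into 5 equal bins by the length of the transcript model in bases (horizontal axis). The black line, from the deposited counts, climbs with length from -0.24 to 0.20, and the dashed blue line, after the length correction, stays near 0.

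Of the 13381 genes with enough counts to be tested, none was called between Kuiyangling and the DSS model at an adjusted p under 0.05 (0%), with all 8 libraries in 1 fit of edgeR's quasi-likelihood test. The smallest adjusted p was 0.820, shared by the clock output gene Dbp, which was higher, and the neutrophil chemokine Cxcl2, which was lower. The adjusted p was 0.989 for the clock output gene Tef, the iron transporter Slc11a2 and the lipid transporter Mfsd2a, and at least 0.996 for every other gene. At an unadjusted p under 0.05 there were 265 genes higher (1.98%) and 211 lower (1.58%), 476 in all (3.56%). With 2 animals against 2, an exact permutation test of a single gene cannot give a two-sided p below 0.333.

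Another 3 ways of testing the same counts did make calls. DESeq2 called 13 genes (0.0749%), 6 higher and 7 lower. edgeR without the filter on low counts called 11 (0.0634%), and edgeR on only the 4 libraries compared called 21 (0.163%), 8 higher and 13 lower. The 3 settings together named 26 genes, of which 7 were called by all 3. Those 7 were Dbp, Slc11a2, the amino acid transporter Slc6a19 and the scavenger receptor Cubn, all higher, and Cxcl2, the calprotectin subunit S100a8 and Fam177a2, all lower. Their values are given below as measured, and no gene is said to have changed, because the main test called none.

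Of the tested genes, 2933 (21.9%) had both Kuiyangling libraries above both DSS model libraries, and 2827 (21.1%) had both below, 5760 in all (43%). Estimates were above 0 for 50.3% and below 0 for 49.7%, and the median over all genes was 0.00. These shares are the background for each gene list below. On the deposited FPKM, which are scaled to total counts only, the split was 4300 higher and 1656 lower, and that scaling moved the median of all genes to 0.14.

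**Figure D2:**
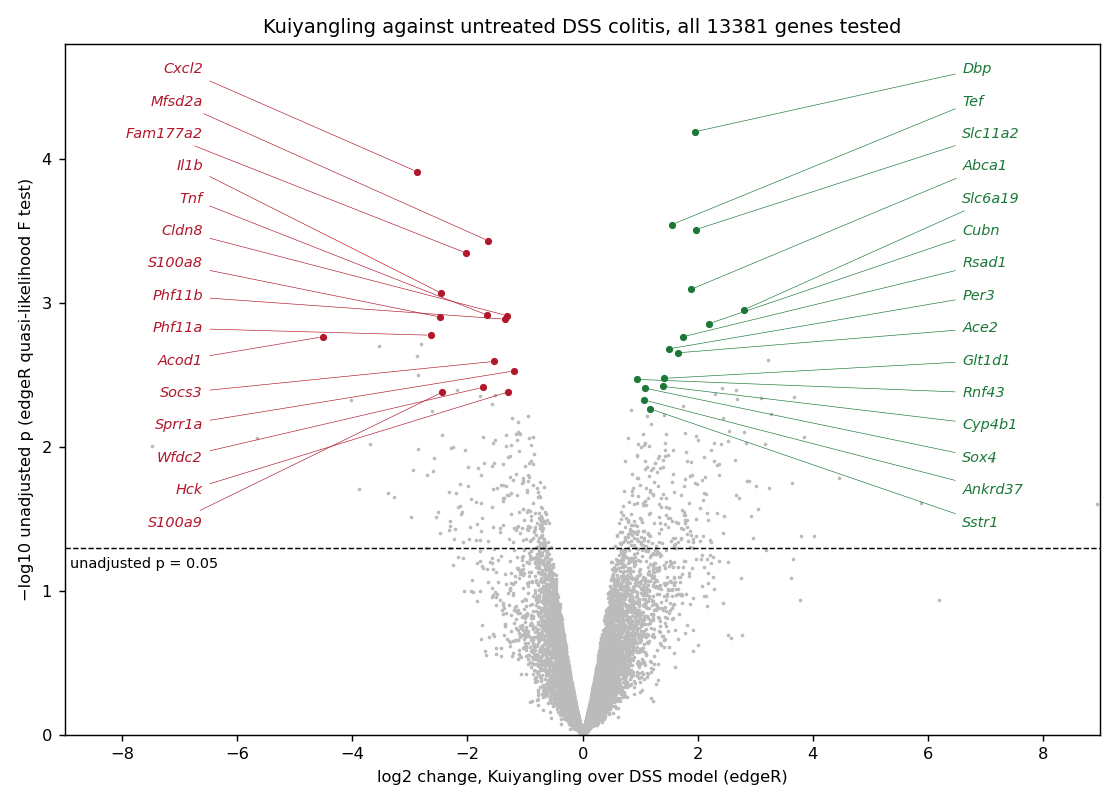
Each of the 13381 tested genes by its log2 change, Kuiyangling over the DSS model (horizontal axis), and by its unadjusted p on a −log10 scale (vertical axis), from edgeR's quasi-likelihood test. Named are the 15 genes of each direction with the smallest p among those with no overlap between the groups and a mean of at least 5 CPM in the higher group, in green for higher and in red for lower with Kuiyangling. None of them passed an adjusted p of 0.05.

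Neutrophil chemokines stood lower with Kuiyangling. CXC chemokines of this group bind CXCR2 on neutrophils and draw them out of the blood. Cxcl2 stood at 2.17 and 0.935 CPM with Kuiyangling, against 10.1 and 12.5 CPM in the DSS model. Both treated animals were several-fold below both untreated animals, and the log2 change was -2.87 (SE 0.47). Cxcl1, encoded beside it, stood at 2.10 and 1.40 CPM with Kuiyangling, against 3.71 and 8.62 CPM in the DSS model, with a log2 change of -1.81 (SE 0.61). Cxcl3 stood at 0.743 and 0.519 CPM with Kuiyangling, against 2.83 and 1.72 CPM in the DSS model, with a log2 change of -1.85 (SE 0.68). Neither of these overlapped between the groups, although the DSS model animals stood well apart from each other. Cxcl5, which epithelial cells also make, differed less, at 4.21 and 3.58 CPM with Kuiyangling, against 4.28 and 6.56 CPM in the DSS model. Kuiyangling 1 and DSS model 1 each held 68 counts of Cxcl5, so its lack of overlap rests on the scaling. Of 13 neutrophil-attracting chemokines and growth factors, 6 had enough counts to be tested. All 6 had estimates below 0, 5 of them without overlap, and 3 had an unadjusted p under 0.05, with a median of -1.83. The median stayed between -2.15 and -1.09 when any 1 library was left out.

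The promoters of Cxcl1, Cxcl2 and Cxcl3 are shown because these neighbouring genes stood lower together and because each holds the same letters of a binding motif of NF-kB, a transcription factor of inflammation. Stretches around the match are taken from RefSeq (GRCm38.p6), on the plus strand of chromosome 5, with the motif in capitals.
Cxcl1, chr5:90891149-90891208: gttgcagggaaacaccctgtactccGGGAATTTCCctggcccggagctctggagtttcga
Cxcl2, chr5:90903777-90903836: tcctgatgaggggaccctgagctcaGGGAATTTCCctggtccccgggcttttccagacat
Cxcl3, chr5:90786003-90786062: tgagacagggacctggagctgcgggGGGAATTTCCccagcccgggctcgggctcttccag
The pattern (GGGA, 1 base of any kind, then TTTCC) was searched on both strands in the 250 bases before each annotated start. It was found in 3 of the 4 tested members of this list that had a promoter sequence, against 0.506% of the 10677 tested genes with one and 0.356% of all 32851 promoter windows. A second NF-kB pattern (GGG, 2 bases of any kind, then TTCCC) was in none of those 4 and in 2.38% of tested genes, and matches of the 2 patterns overlapped in no tested gene. The match begins 71, 97 and 73 bases before the start of Cxcl1, Cxcl2 and Cxcl3. These 3 genes are neighbours with like letters around the match, so their matches do not count as independent. A match describes the letters and not a bound site.

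Most marker transcripts of neutrophils themselves also stood lower. S100a8 and S100a9 encode the pair of proteins that form calprotectin, which fills neutrophil cytosol. S100a8 stood at 2.79 and 2.23 CPM with Kuiyangling, against 9.62 and 18.4 CPM in the DSS model, a log2 change of -2.48 (SE 0.56). S100a9 stood at 3.65 and 2.23 CPM with Kuiyangling, against 10.9 and 21.0 CPM in the DSS model, a log2 change of -2.44 (SE 0.64). For both, DSS model 2 held nearly 2 times the level of DSS model 1, and both treated animals lay below either. Csf3r, the receptor for granulocyte colony-stimulating factor, stood at 0.619 and 0.260 CPM with Kuiyangling, against 3.02 and 3.12 CPM in the DSS model, a log2 change of -2.80 (SE 0.67), with the DSS model animals at nearly the same level. Cxcr2, the receptor for the chemokines above, had 0 counts in both Kuiyangling libraries, against 9 and 16 counts in the DSS model, which makes it at least 9.53-fold lower with Kuiyangling, at a floor of 3 counts over the group.

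Several other markers of activated neutrophils followed the same order. Trem1, a receptor that amplifies inflammation, stood at 0.248 and 0.519 CPM with Kuiyangling, against 0.755 and 1.86 CPM in the DSS model. Retnlg, a resistin-like protein of neutrophils, stood at 0.990 and 0.519 CPM with Kuiyangling, against 2.89 and 3.98 CPM in the DSS model. Clec4e, a receptor for microbial glycolipids, stood at 0.371 and 0.363 CPM with Kuiyangling, against 1.70 and 3.78 CPM in the DSS model. Hdc, which makes histamine, stood at 0.433 and 0.104 CPM with Kuiyangling, against 1.95 and 4.31 CPM in the DSS model. The formyl peptide receptor Fpr2 stood at 0.248 and 0.312 CPM with Kuiyangling, against 0.755 and 3.45 CPM in the DSS model. Acod1, the enzyme that makes itaconate in activated myeloid cells, stood at 0.371 and 0.208 CPM with Kuiyangling, against 2.14 and 11.3 CPM in the DSS model. The range within the DSS model was wide for Acod1 and Fpr2, and DSS model 2 was the higher animal in both. Fewer neutrophils and less of these RNAs per neutrophil cannot be told apart in bulk tissue. Fpr1, the receptor related to Fpr2, overlapped with 5 and 10 counts with Kuiyangling and 3 and 9 counts in the DSS model, and was not tested.

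Of 28 neutrophil markers, 20 were tested, and 19 had estimates below 0, 16 without overlap and 9 at an unadjusted p under 0.05, with a median of -1.90. Without DSS model 2 the median was -1.15, without DSS model 1 it was -2.32, and on log2(FPKM + 1) it was -0.57. The 1 estimate above 0 was that of Ly6g. It overlapped, at 200 and 130 CPM with Kuiyangling and 135 and 168 CPM in the DSS model. Slfn4, Asprv1 and Cd177 overlapped too, with estimates below 0. The summed level of the list did not separate the groups, at 1884 and 938 CPM with Kuiyangling and 1877 and 1689 CPM in the DSS model. It was 3276 and 4533 CPM in the control libraries, where S100a9 had 0 counts, and so does not follow the neutrophil genes described above. Slfn4 held the largest share of the control sum, at 2875 and 3918 CPM. The level of Slfn4 was 1118 and 368 CPM with Kuiyangling and 858 and 765 CPM in the DSS model. Pglyrp1, another abundant member, did not overlap, at 498 and 313 CPM with Kuiyangling, against 704 and 559 CPM in the DSS model.

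Several genes that build extracellular traps had too few counts to compare. Padi4, which citrullinates histones, had 0 counts with Kuiyangling and 3 and 0 counts in the DSS model. The granule protease genes Elane, Prtn3 and Ctsg and the antimicrobial peptide gene Camp had at most 3 counts in any of the 4 libraries, so a difference was not detectable at this depth. Mmp8, the neutrophil collagenase, had 6 and 1 counts with Kuiyangling and 3 and 10 counts in the DSS model, and was not tested. Other granule genes had more counts. Ltf, a secondary granule protein also made by epithelium, stood at 2.35 and 1.04 CPM with Kuiyangling, against 6.23 and 3.25 CPM in the DSS model. Mmp9, a gelatinase of neutrophil granules, stood at 1.30 and 0.208 CPM with Kuiyangling, against 1.89 and 3.51 CPM in the DSS model. Neither overlapped between the groups. Subunits of the phagocyte oxidase differed among themselves. Ncf1 stood at 2.41 and 2.28 CPM with Kuiyangling and 2.77 and 2.85 CPM in the DSS model. The membrane subunit Cybb stood at 1.73 and 2.70 CPM with Kuiyangling and 2.20 and 3.58 CPM in the DSS model. Its partner Cyba, named after its values were seen, stood at 114 and 79.4 CPM with Kuiyangling, against 165 and 115 CPM in the DSS model, a log2 change of -0.54 (SE 0.36). The list also holds genes of necroptosis, a lytic cell death. The kinase Ripk3 stood at 72.4 and 59.4 CPM with Kuiyangling, against 113 and 102 CPM in the DSS model. Its substrate Mlkl, which opens the membrane, stood at 52.7 and 36.2 CPM with Kuiyangling, against 73.7 and 67.6 CPM in the DSS model. Controls, where S100a9 had 0 counts, held 34.6 and 44.0 CPM of Ripk3 and 68.0 and 75.5 CPM of Mlkl. Of the 25 trap components and machinery genes 18 were tested, 17 with estimates below 0, 9 without overlap and 3 at an unadjusted p under 0.05, with a median of -0.39. Those 3 were Mmp9 and the necroptosis genes Ripk3 and Mlkl.

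Inflammatory cytokines stood lower as a group. Il1b, the inflammasome cytokine, stood at 3.34 and 5.71 CPM with Kuiyangling, against 13.7 and 36.1 CPM in the DSS model. The DSS model animals differed from each other by more than 2-fold, and the lower of them was still above both treated animals, with a log2 change of -2.45 (SE 0.52). Tnf stood at 4.27 and 3.37 CPM with Kuiyangling, against 14.3 and 9.95 CPM in the DSS model, a log2 change of -1.66 (SE 0.37), and controls held a like level of 3.96 and 4.62 CPM. Il18, a cytokine made by the epithelium, was at 59.8 and 60.2 CPM with Kuiyangling, against 187 and 106 CPM in the DSS model, with both treated animals at nearly the same level. Il1a stood at 0.619 and 1.09 CPM with Kuiyangling, against 2.01 and 4.91 CPM in the DSS model.

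Lif, a cytokine of the IL-6 family, stood at 3.90 and 3.53 CPM with Kuiyangling, against 10.1 and 8.49 CPM in the DSS model. Osm, of the same family, stood at 0.495 and 0.156 CPM with Kuiyangling, against 0.881 and 2.39 CPM in the DSS model. Ifng, the T and NK cell cytokine, had 1 count in the Kuiyangling group and 55 in the DSS model group, a ratio of 0.0159 (95% counting interval 0.000396 to 0.0924). Of those 55 counts, 51 came from DSS model 2. Nos2, the inducible nitric oxide synthase, stood at 45.6 and 26.3 CPM with Kuiyangling, against 130.2 and 62.1 CPM in the DSS model, a log2 change of -1.42 (SE 0.66). Il6 overlapped between the groups, at 0.309 and 0.571 CPM with Kuiyangling and 0.566 and 1.79 CPM in the DSS model. Its relative Il11 overlapped too, at 3.22 and 3.12 CPM with Kuiyangling and 2.39 and 10.1 CPM in the DSS model. Ptgs2, the inducible cyclooxygenase, overlapped as well, with 118 and 124 counts with Kuiyangling and 77 and 272 counts in the DSS model. Of 20 cytokines and mediators 16 were tested, 14 with estimates below 0, 10 without overlap, and 7 at an unadjusted p under 0.05, all of them lower. Their median was -1.31, and -0.82 without DSS model 2. The AP-1 pattern TGANTCA was in 5 of the 14 with a promoter sequence, against 6.00% of tested genes, and the first NF-kB pattern in 1.

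Socs3 and Socs1 encode feedback inhibitors of cytokine signalling, and Socs1 is named after its values were seen. Socs3, which restrains STAT3 downstream of IL-6 family cytokines, stood at 43.5 and 34.1 CPM with Kuiyangling, against 123 and 102 CPM in the DSS model, a log2 change of -1.54 (SE 0.39). Socs1, which restrains interferon signalling, stood at 7.55 and 4.41 CPM with Kuiyangling, against 27.4 and 37.6 CPM in the DSS model, a log2 change of -2.44 (SE 0.75). Both were called when only the 4 libraries were fitted. Cd14, the co-receptor for bacterial lipopolysaccharide, stood at 34.8 and 40.6 CPM with Kuiyangling, against 94.3 and 69.2 CPM in the DSS model. Bcl3, an NF-kB partner, stood at 39.6 and 43.8 CPM with Kuiyangling, against 97.4 and 58.5 CPM in the DSS model. Nlrp3, the inflammasome sensor, stood at 0.124 and 0.260 CPM with Kuiyangling, against 0.692 and 1.06 CPM in the DSS model. Pycard, the inflammasome adaptor, stood at 285 and 269 CPM with Kuiyangling, against 447 and 485 CPM in the DSS model. Of 21 NF-kB and inflammasome genes, all tested, 15 had estimates below 0, 12 without overlap, and 2 had an unadjusted p under 0.05, with a median of -0.39, or -0.22 without DSS model 1.

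**Figure D3:**
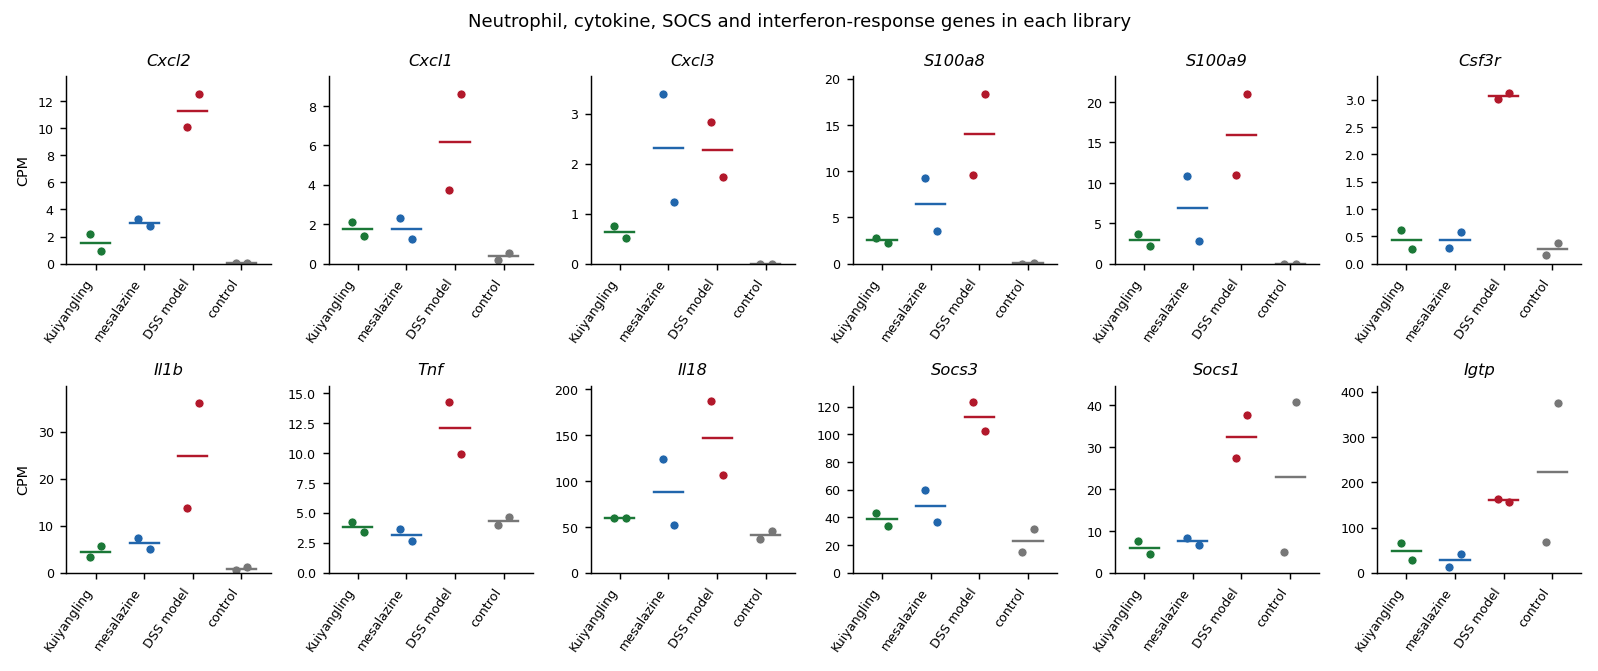
CPM of 12 inflammatory genes (vertical axes, each from 0) in every library, by group along the horizontal axis, with 1 point per animal and a line at the mean of the 2. The 12 genes were chosen with their values known. For all of them both Kuiyangling points lie below both DSS model points, as for 21.1% of all tested genes. Il6, Il11 and Ptgs2, which overlapped, are not shown. Mesalazine and control libraries are shown for scale.

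Chemokines that draw monocytes and T cells mostly stood lower. Ccl4 stood at 0.805 and 0.312 CPM with Kuiyangling, against 4.21 and 2.45 CPM in the DSS model. Cxcl9 and Cxcl10 are induced by interferon-gamma and attract T cells. Cxcl9 stood at 3.03 and 5.09 CPM with Kuiyangling, against 7.48 and 42.0 CPM in the DSS model. Cxcl10 stood at 2.29 and 2.75 CPM with Kuiyangling, against 7.74 and 41.1 CPM in the DSS model. DSS model 2 held more than 5 times the level of DSS model 1 in both, and both treated animals lay below DSS model 1 as well. Of 24 other chemokines 20 were tested, 13 with estimates below 0 and 7 above. Without overlap were 8 lower and 4 higher, and at an unadjusted p under 0.05 were 4 lower and 1 higher. The median was -0.48, or -0.24 without DSS model 1. The 1 higher at that p was Cxcl14, a chemokine of stroma and epithelium. It stood at 3.59 and 3.95 CPM with Kuiyangling, against 0.881 and 1.79 CPM in the DSS model. Ccl5, Ccl20 and Cxcl13 were also higher without overlap. Ccl5 stood at 6.00 and 6.54 CPM with Kuiyangling, against 3.27 and 5.83 CPM in the DSS model. Markers of monocytes and macrophages showed no common direction, with 12 of 19 above 0 and a median of 0.25. That median was -0.03 without Kuiyangling 1, 0.46 without Kuiyangling 2 and 0.11 without DSS model 1. Ly6c2, a marker of inflammatory monocytes, stood at 0.557 and 0.779 CPM with Kuiyangling, against 1.20 and 3.98 CPM in the DSS model. The resident macrophage marker Cd163 stood at 1.05 and 0.467 CPM with Kuiyangling, against 0.252 and 0.0663 CPM in the DSS model. Cx3cr1, another marker of resident cells, stood at 2.48 and 3.17 CPM with Kuiyangling, against 1.51 and 1.33 CPM in the DSS model. T and NK cell markers had 11 of 17 estimates above 0 and a median of 0.17, which was -0.13 without Kuiyangling 1, 0.33 without Kuiyangling 2, -0.06 without DSS model 1 and 0.56 without DSS model 2. Gata3, a factor of type 2 lymphocytes, stood at 1.05 and 1.04 CPM with Kuiyangling, against 3.71 and 2.52 CPM in the DSS model. The intraepithelial integrin Itgae stood at 4.39 and 3.12 CPM with Kuiyangling, against 2.39 and 1.59 CPM in the DSS model. B and plasma cell markers had a median of -0.57 over 11 tested genes, which was -0.17 without Kuiyangling 1, -1.07 without DSS model 1 and 0.69 without DSS model 2. Jchain, the joining chain of secreted antibodies, overlapped, at 37.2 and 44.7 CPM with Kuiyangling and 38.0 and 113 CPM in the DSS model. Xbp1, a factor of secretory cells, stood at 213 and 182 CPM with Kuiyangling, against 322 and 294 CPM in the DSS model. The endoplasmic reticulum gene Derl3 of plasma cells stood at 0.186 and 0.675 CPM with Kuiyangling, against 0.943 and 0.928 CPM in the DSS model.

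Interferon-induced genes stood lower in Kuiyangling 2, and in part in Kuiyangling 1. Igtp, an interferon-inducible GTPase against intracellular microbes, stood at 65.1 and 29.1 CPM with Kuiyangling, against 163 and 156 CPM in the DSS model, a log2 change of -1.76 (SE 0.74). Iigp1, a GTPase of the same family, stood at 32.6 and 17.4 CPM with Kuiyangling, against 108 and 139 CPM in the DSS model. Irgm1 stood at 189 and 93.6 CPM with Kuiyangling, against 276 and 274 CPM in the DSS model. Gbp2, a guanylate-binding protein, stood at 31.4 and 15.2 CPM with Kuiyangling, against 60.8 and 149 CPM in the DSS model. In all 4 genes Kuiyangling 1 lay between Kuiyangling 2 and the DSS model animals. Of 30 interferon-stimulated genes 27 were tested, 23 with estimates below 0, 8 without overlap, and 1 at an unadjusted p under 0.05, with a median of -0.47. Without Kuiyangling 2 the median was 0.04, and without Kuiyangling 1 it was -1.43, so the list depends on which treated animal is kept. It was -0.80 without DSS model 2. Controls were themselves far apart in these genes, with Gbp2 at 30.8 and 514 CPM.

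Some interferon-induced transcripts agreed closely within both groups. Ifi27l2a stood at 16.6 and 16.7 CPM with Kuiyangling, against 48.8 and 65.7 CPM in the DSS model. Ifitm3, which blocks virus entry, stood at 30.8 and 33.3 CPM with Kuiyangling, against 95.9 and 89.2 CPM in the DSS model. The transcription factor gene Batf2 stood at 23.5 and 23.1 CPM with Kuiyangling, against 69.8 and 64.8 CPM in the DSS model. All 3 were among the 21 genes called in the fit of the 4 libraries. Members of the Phf11 family differed among themselves. Phf11b stood at 39.3 and 22.1 CPM with Kuiyangling, against 82.0 and 74.9 CPM in the DSS model. Controls held 94.6 and 85.2 CPM of Phf11b. Phf11a stood at 2.23 and 0.831 CPM with Kuiyangling, against 13.8 and 5.11 CPM in the DSS model. Phf11d overlapped, at 66.5 and 21.5 CPM with Kuiyangling and 63.0 and 55.4 CPM in the DSS model. These paralogs are close in sequence, and the counts could be split between them. Psmb8, Psmb9 and Psmb10 are subunits of the immunoproteasome, which cuts peptides for MHC class I. Psmb8 stood at 120.0 and 64.5 CPM with Kuiyangling, against 179.7 and 196 CPM in the DSS model. Psmb9 stood at 73.2 and 38.5 CPM with Kuiyangling, against 120.2 and 125 CPM in the DSS model. Psmb10 stood at 236 and 167 CPM with Kuiyangling, against 393 and 385 CPM in the DSS model. Kuiyangling 2 was the lowest of the 4 libraries in all 3. Tap1, which carries the peptides into the endoplasmic reticulum, stood at 136 and 64.7 CPM with Kuiyangling, against 237 and 219 CPM in the DSS model. Over 15 tested genes of antigen presentation 14 had estimates below 0, 9 without overlap and 4 at an unadjusted p under 0.05, with a median of -0.62, or -0.35 without Kuiyangling 2.

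Genes that the colonic epithelium uses against microbes and in wound repair mostly stood lower. Retnlb, a goblet cell protein against bacteria, stood at 412 and 314 CPM with Kuiyangling, against 1027 and 946 CPM in the DSS model, a log2 change of -1.44 (SE 0.60). The lectin Reg3g stood at 1822 and 795 CPM with Kuiyangling, against 4142 and 3085 CPM in the DSS model. Duoxa2, which matures the epithelial hydrogen peroxide source Duox2, stood at 135 and 78.2 CPM with Kuiyangling, against 311 and 192 CPM in the DSS model. Duox2 itself stood at 314 and 224 CPM with Kuiyangling, against 624 and 335 CPM in the DSS model. Among wound genes, Plaur, the urokinase receptor, stood at 23.1 and 16.3 CPM with Kuiyangling, against 40.8 and 51.9 CPM in the DSS model. Tgm2, a transglutaminase, stood at 125 and 72.2 CPM with Kuiyangling, against 169 and 189 CPM in the DSS model. Sprr1a, a small proline-rich protein, stood at 16.6 and 14.1 CPM with Kuiyangling, against 35.5 and 34.7 CPM in the DSS model. Ly6a, a surface marker of regenerating epithelium, stood at 915 and 595 CPM with Kuiyangling, against 1937 and 1737 CPM in the DSS model. Il4ra, the receptor chain for IL-4 and IL-13, stood at 80.8 and 70.0 CPM with Kuiyangling, against 164 and 116 CPM in the DSS model. In all 9 of these genes both treated animals lay below both untreated ones. The antimicrobial protein gene Lcn2 overlapped, at 9.10 and 3.12 CPM with Kuiyangling and 6.98 and 14.2 CPM in the DSS model. Saa3, an acute-phase protein, overlapped too, at 105 and 43.7 CPM with Kuiyangling and 83.7 and 128 CPM in the DSS model. Of 29 genes in this list 27 were tested, 22 with estimates below 0 and 16 without overlap. At an unadjusted p under 0.05 were 8 lower and 1 higher, and the median was -0.80. The higher one was Reg4, a lectin of secretory cells, at 137 and 47.4 CPM with Kuiyangling, against 30.8 and 21.2 CPM in the DSS model.

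Gasdermins C and a protease inhibitor of the epithelium also stood lower. The Gsdmc genes encode pore-forming proteins that type 2 cytokines induce in gut epithelium. Gsdmc4 stood at 82.9 and 108 CPM with Kuiyangling, against 771 and 321 CPM in the DSS model. Gsdmc3 stood at 24.1 and 32.3 CPM with Kuiyangling, against 119.7 and 81.7 CPM in the DSS model. Gsdmc2 stood at 102 and 125 CPM with Kuiyangling, against 456 and 261 CPM in the DSS model. Because these genes are close copies, their counts are uncertain. Wfdc2 stood at 18.8 and 21.0 CPM with Kuiyangling, against 71.2 and 61.1 CPM in the DSS model, a log2 change of -1.73 (SE 0.46). Cldn8, a barrier-forming claudin of the distal colon, stood at 38.2 and 35.4 CPM with Kuiyangling, against 111 and 71.7 CPM in the DSS model, a log2 change of -1.32 (SE 0.30). Controls held 85.9 and 162 CPM of Wfdc2 and 62.4 and 72.8 CPM of Cldn8, above both Kuiyangling animals in each. Other junction genes differed less, with Cldn7 at 1180.1 and 876 CPM with Kuiyangling and 1753 and 1391 CPM in the DSS model and Cldn23 at 77.5 and 62.5 CPM with Kuiyangling and 99.8 and 96.7 CPM in the DSS model. Over 21 junction genes 15 estimates were below 0, Cldn8 was the only one at an unadjusted p under 0.05, and the median was -0.16. It was -0.00070 without DSS model 1 and -0.33 without DSS model 2.

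Some transporters of the brush border were among the genes with the smallest p. Slc11a2, the transporter that takes up iron at the apical membrane, stood at 179 and 113 CPM with Kuiyangling, against 34.7 and 40.2 CPM in the DSS model, a log2 change of 1.96 (SE 0.37). Both treated animals were well above the untreated ones, and also above both control animals (36.2 and 32.8 CPM). Slc6a19, which takes up neutral amino acids, stood at 12.1 and 10.2 CPM with Kuiyangling, against 1.64 and 1.52 CPM in the DSS model, a log2 change of 2.81 (SE 0.62). Cubn, a receptor for vitamin B12 bound to intrinsic factor, stood at 14.8 and 19.7 CPM with Kuiyangling, against 3.46 and 4.04 CPM in the DSS model. The treated animals agreed closely in Slc6a19. The sterol exporter Abca1 stood at 11.1 and 10.2 CPM with Kuiyangling, against 2.14 and 3.65 CPM in the DSS model, a log2 change of 1.88 (SE 0.40).

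Further transporters, and an enzyme of lipid synthesis, are named here after their values were seen. Slc10a2, which takes up bile acids, stood at 218 and 139 CPM with Kuiyangling, against 54.9 and 53.7 CPM in the DSS model. Npc1l1, which takes up cholesterol, stood at 9.04 and 3.32 CPM with Kuiyangling, against 0.566 and 1.19 CPM in the DSS model. Slc6a20a, a transporter of imino acids, stood at 3.47 and 3.43 CPM with Kuiyangling, against 1.07 and 1.46 CPM in the DSS model. Slc37a2, a sugar-phosphate exchanger, stood at 9.66 and 14.8 CPM with Kuiyangling, against 1.38 and 0.530 CPM in the DSS model. Slc37a2 varied widely elsewhere, at 0.708 and 98.6 CPM with mesalazine and 27.0 and 327 CPM in controls. Ugt8a, a galactosyltransferase of glycolipid synthesis, stood at 22.5 and 17.9 CPM with Kuiyangling, against 4.91 and 5.11 CPM in the DSS model. Groups did not overlap in any of these 5 genes. Anpep, an aminopeptidase of the brush border, stood at 72.4 and 6.49 CPM with Kuiyangling, against 4.15 and 4.57 CPM in the DSS model, so its estimate rests on Kuiyangling 1. The iron exporter gene Slc40a1 overlapped, at 663 and 552 CPM with Kuiyangling and 586 and 464 CPM in the DSS model, and the bile acid exporter subunit Slc51b stood lower, at 128 and 73.4 CPM with Kuiyangling, against 144 and 176 CPM in the DSS model. Several of these transporters vary along the length of the gut, and so does Hoxb13, a marker of the posterior end, which stood at 5.88 and 23.2 CPM with Kuiyangling and 12.9 and 2.98 CPM in the DSS model, with mesalazine libraries at 0.212 and 0.642 CPM. The part of sampling position in these differences was not tested.

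Genes of mature colonocytes as a list moved in both directions. The multidrug exporter Abcb1a stood at 677 and 694 CPM with Kuiyangling, against 356 and 354 CPM in the DSS model. The water channel Aqp8 stood at 381 and 490.2 CPM with Kuiyangling, against 249 and 314 CPM in the DSS model. Scnn1g, a subunit of the epithelial sodium channel, stood at 2.60 and 1.19 CPM with Kuiyangling, against 0.503 and 0.265 CPM in the DSS model. Clca4b, a chloride channel regulator abundant after DSS, stood lower, at 472 and 254 CPM with Kuiyangling, against 678 and 589 CPM in the DSS model. The chloride and bicarbonate exchanger Slc26a3 overlapped, at 326 and 629 CPM with Kuiyangling and 317 and 357 CPM in the DSS model. Of 27 genes for absorption and transport, all tested, 18 had estimates above 0, 11 without overlap. The median was 0.36, with 1 higher and 1 lower at an unadjusted p under 0.05. It was 0.19 without Kuiyangling 1 and 0.11 without Kuiyangling 2. Enzymes of xenobiotic metabolism had 20 of 28 estimates above 0, 13 without overlap and 2 at an unadjusted p under 0.05, with a median of 0.31. The glucuronosyltransferase Ugt1a1 stood at 80.8 and 65.1 CPM with Kuiyangling, against 32.7 and 35.9 CPM in the DSS model, and since it shares exons with the other Ugt1a genes its counts are uncertain. The cytochrome P450 gene Cyp2d26 stood at 198 and 147 CPM with Kuiyangling, against 93.3 and 83.1 CPM in the DSS model. Cyp3a13 stood at 424 and 316 CPM with Kuiyangling, against 187 and 266 CPM in the DSS model.

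Secretory cells pointed in more than 1 direction. Goblet cell genes had 17 of 20 estimates below 0, 10 without overlap, and a median of -0.32, or -0.18 without DSS model 1. The kallikrein Klk1 stood at 598 and 356 CPM with Kuiyangling, against 871 and 635 CPM in the DSS model. Clca1, a mucus protein, stood at 762 and 739 CPM with Kuiyangling, against 850.4 and 989 CPM in the DSS model. Tff3, a trefoil peptide of mucus repair, overlapped, at 1180.0 and 548 CPM with Kuiyangling and 1209 and 1059.9 CPM in the DSS model. Creb3l1, a transcription factor of the secretory pathway, overlapped as well, at 73.5 and 108 CPM with Kuiyangling and 196 and 82.0 CPM in the DSS model. Besides Retnlb no goblet gene had an unadjusted p under 0.05. Tuft cells, chemosensory cells of the epithelium, had 12 of 14 genes below 0, 9 without overlap and 3 at an unadjusted p under 0.05, with a median of -0.98, or -0.62 without Kuiyangling 2. Trpm5, the cation channel of their taste-like signalling, stood at 2.60 and 2.75 CPM with Kuiyangling, against 5.79 and 6.63 CPM in the DSS model. The tuft cell kinase Dclk1 stood at 3.84 and 3.43 CPM with Kuiyangling, against 6.60 and 5.44 CPM in the DSS model. The lectin receptor Siglecf, which eosinophils also make, stood at 1.11 and 1.09 CPM with Kuiyangling, against 2.45 and 2.39 CPM in the DSS model. None of the 3 overlapped, and controls held more, with Trpm5 at 13.9 and 32.4 CPM. Enteroendocrine genes had 14 of 18 estimates above 0 and a median of 0.22, and none had an unadjusted p under 0.05. The median was -0.0046 without Kuiyangling 1, 0.33 without Kuiyangling 2, 0.59 without DSS model 1 and -0.15 without DSS model 2. Neurod1, a factor of their differentiation, stood at 3.59 and 3.53 CPM with Kuiyangling, against 2.14 and 1.72 CPM in the DSS model. The hormone genes overlapped, with somatostatin, Sst, at 5.01 and 2.39 CPM with Kuiyangling and 7.67 and 4.38 CPM in the DSS model. Secretin, Sct, stood at 48.6 and 25.4 CPM with Kuiyangling and 23.3 and 29.9 CPM in the DSS model.

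Wnt targets and stem cell genes stood higher. Rnf43, a ubiquitin ligase that removes Wnt receptors and is itself a Wnt target, stood at 30.6 and 26.6 CPM with Kuiyangling, against 14.3 and 15.4 CPM in the DSS model, a log2 change of 0.94 (SE 0.25). Control animals held 29.0 and 29.3 CPM. Axin2, a scaffold of the beta-catenin destruction complex and a direct Wnt target, stood at 13.5 and 16.1 CPM with Kuiyangling, against 2.39 and 8.22 CPM in the DSS model. Lgr5, the receptor that marks crypt stem cells, stood at 4.58 and 6.75 CPM with Kuiyangling, against 0.314 and 3.45 CPM in the DSS model. Ascl2, a factor of the same cells, stood at 4.15 and 3.22 CPM with Kuiyangling, against 0.252 and 2.19 CPM in the DSS model. DSS model 1 was far below DSS model 2 in Axin2, Lgr5 and Ascl2. The guidance receptor Ephb3 stood at 14.5 and 17.3 CPM with Kuiyangling, against 7.36 and 11.8 CPM in the DSS model. The cell cycle kinase Cdk6 stood at 27.9 and 24.2 CPM with Kuiyangling, against 11.3 and 17.3 CPM in the DSS model. Outside the list, Sox4, a factor of progenitor cells, stood at 32.9 and 48.8 CPM with Kuiyangling, against 19.1 and 19.4 CPM in the DSS model. Of 22 genes in the list 19 were tested, 16 with estimates above 0, 7 without overlap and 5 at an unadjusted p under 0.05, with a median of 0.49. It stayed between 0.32 and 0.65 when any 1 library was left out. Cell cycle genes divided evenly, with 14 of 28 above 0 and a median of 0.00, which left-out libraries moved between -0.49 and 0.56. The cyclin gene Ccnd1 stood lower, at 94.7 and 99.2 CPM with Kuiyangling, against 227 and 149 CPM in the DSS model. Mki67, the proliferation marker, overlapped, at 65.5 and 135 CPM with Kuiyangling and 65.6 and 109.9 CPM in the DSS model. The mitotic kinase Plk1 stood at 19.7 and 33.5 CPM with Kuiyangling and 29.6 and 42.6 CPM in the DSS model. Mcm7, of the replication helicase, stood at 41.8 and 50.6 CPM with Kuiyangling and 24.2 and 47.0 CPM in the DSS model. Plk1 and Mcm7 overlapped too.

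Clock genes stood higher, with their usual opponents lower. The clock runs on a loop in which Arntl and Clock drive Per and Cry genes, whose products shut the pair off, while the output factors Dbp and Tef carry the rhythm to metabolic genes. Dbp stood at 37.5 and 26.1 CPM with Kuiyangling, against 6.98 and 9.41 CPM in the DSS model, a log2 change of 1.95 (SE 0.30). Each treated animal was more than 2-fold above each untreated one, and control animals held 2.87 and 2.90 CPM. Tef stood at 88.0 and 79.4 CPM with Kuiyangling, against 22.8 and 34.2 CPM in the DSS model, a log2 change of 1.55 (SE 0.29). The repressor genes were higher too. Per3 stood at 26.6 and 23.6 CPM with Kuiyangling, against 9.50 and 8.22 CPM in the DSS model. Per2 stood at 22.4 and 21.8 CPM with Kuiyangling, against 9.06 and 7.76 CPM in the DSS model. Their partner Cry2 stood at 27.4 and 21.9 CPM with Kuiyangling, against 13.6 and 8.95 CPM in the DSS model. Ciart, a repressor of Arntl and Clock, stood at 7.55 and 5.14 CPM with Kuiyangling, against 1.70 and 3.12 CPM in the DSS model. Nr1d2, a nuclear receptor that represses Arntl, stood at 68.7 and 74.6 CPM with Kuiyangling, against 29.9 and 34.7 CPM in the DSS model. None of these 7 clock genes overlapped between the groups.

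The genes that peak opposite to Dbp in mouse tissues stood lower. Arntl was at 17.8 and 21.3 CPM with Kuiyangling, against 31.5 and 24.7 CPM in the DSS model. Nfil3, which competes with Dbp for its sites, stood at 11.5 and 7.27 CPM with Kuiyangling, against 23.0 and 15.6 CPM in the DSS model. Of 20 clock genes 17 were tested, 13 with estimates above 0 and 11 of them without overlap, while 2 were lower without overlap. At an unadjusted p under 0.05 were 7, all higher, and the median was 0.71, or 0.39 without Kuiyangling 1. The labels used here give no hour of death, so a difference in time of day between the groups cannot be told apart from one of treatment. Mesalazine libraries held like levels, with Dbp at 32.3 and 31.9 CPM and Tef at 89.8 and 102 CPM.

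Arntl and Clock bind the E-box CACGTG, and the promoter stretches of 2 clock genes that stood higher are shown with that motif in capitals, from RefSeq (GRCm38.p6).
Tef, chr15:81802521-81802576, plus strand: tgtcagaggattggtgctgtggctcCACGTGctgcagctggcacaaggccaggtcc
Ciart, chr3:95882242-95882369, minus strand: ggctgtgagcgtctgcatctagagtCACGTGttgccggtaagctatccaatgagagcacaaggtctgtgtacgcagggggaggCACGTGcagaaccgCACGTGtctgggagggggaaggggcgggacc
Ciart holds 3 copies and Tef 1 in the window shown. The letters were in 4 of the 14 tested clock genes with a promoter sequence, against 9.55% of tested genes and 6.02% of all windows. A match is a description of the letters and not of a bound site.

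Genes of fasting and lipid handling gave single differences in both directions. Mfsd2a, a transporter of lysophospholipids whose gene in liver is induced by fasting, stood at 10.1 and 13.9 CPM with Kuiyangling, against 40.6 and 33.9 CPM in the DSS model, a log2 change of -1.64 (SE 0.31). Controls held 2.68 and 2.34 CPM. Depp1, a target of FOXO factors, stood at 4.52 and 3.32 CPM with Kuiyangling, against 1.38 and 0.928 CPM in the DSS model. Mt2, a metallothionein induced by glucocorticoids and metals, stood at 274 and 339.6 CPM with Kuiyangling, against 44.3 and 161 CPM in the DSS model. Ppargc1a, a co-activator of mitochondrial genes, stood at 27.4 and 30.5 CPM with Kuiyangling, against 16.1 and 11.8 CPM in the DSS model. Ppara, the fatty acid receptor, stood at 60.2 and 51.8 CPM with Kuiyangling, against 32.1 and 30.9 CPM in the DSS model. Of 21 glucocorticoid and fasting genes 17 had estimates above 0, 7 without overlap, with 2 higher and 1 lower at an unadjusted p under 0.05 and a median of 0.27. That median was 0.45 without Kuiyangling 2, 0.49 without DSS model 1 and 0.17 after the length correction. Fatty acid oxidation genes had 9 of 20 above 0 and a median of -0.03, or 0.17 with log2(FPKM + 0.1), and left-out Kuiyangling or DSS model libraries moved it between -0.17 and 0.10. Its lower member, the fatty acid binding protein gene Fabp1, stood at 0 and 0.104 CPM with Kuiyangling, against 0.566 and 1.06 CPM in the DSS model. The cholesterol list had a median of -0.07, which was 0.05 with the FPKM, 0.10 without Kuiyangling 1 and -0.39 without Kuiyangling 2. It held Abca1 and Mylip, an LXR target that degrades the LDL receptor, at 13.9 and 16.7 CPM with Kuiyangling, against 8.74 and 4.31 CPM in the DSS model, as its 2 genes at an unadjusted p under 0.05. Fdps, of sterol synthesis, stood lower, at 102 and 152 CPM with Kuiyangling, against 191 and 188 CPM in the DSS model.

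**Figure D4:**
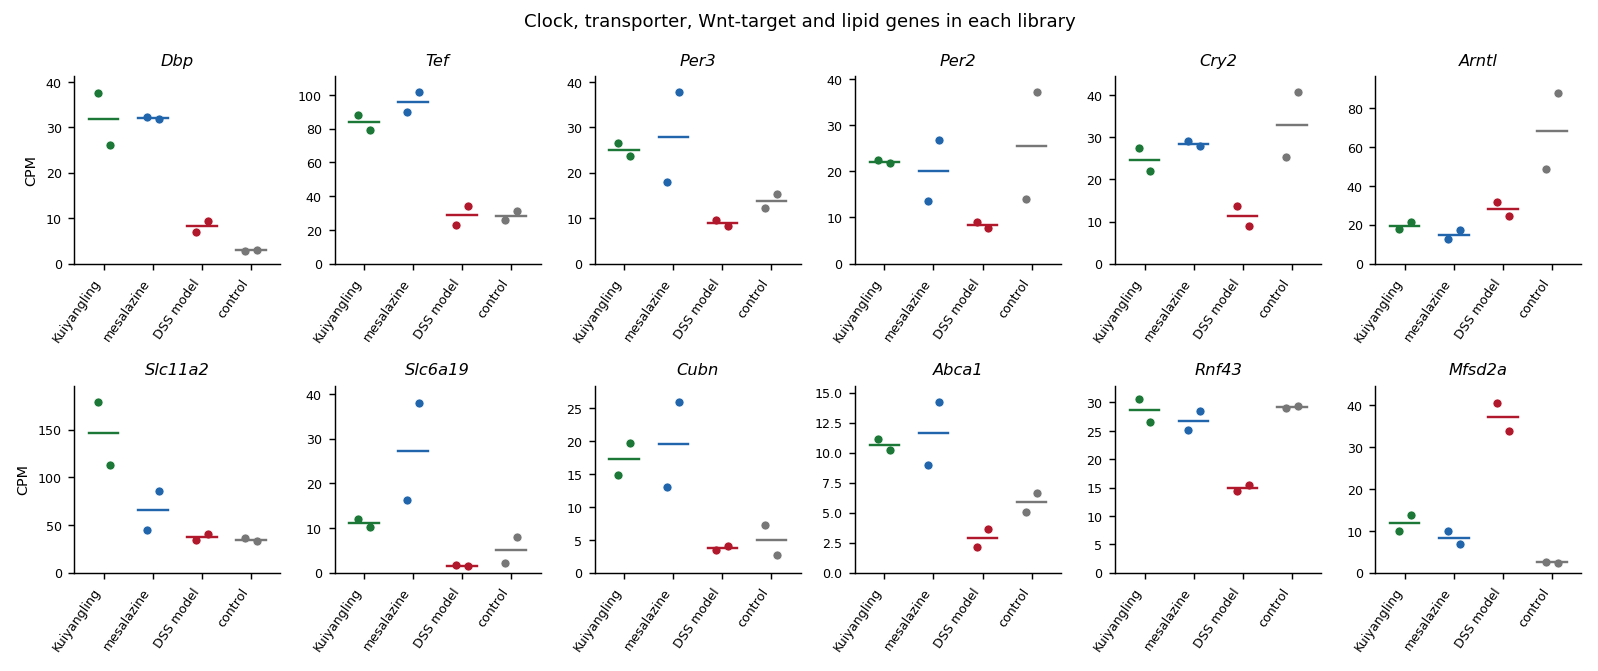
CPM of 12 clock, transporter, Wnt-target and lipid genes (vertical axes, each from 0) in every library, by group along the horizontal axis, with 1 point per animal and a line at the mean of the 2. The 12 genes were chosen with their values known. Kuiyangling points lie above both DSS model points for every gene except Arntl and Mfsd2a, where they lie below.

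The remaining genes with the smallest p belong to no single group. Fam177a2 stood at 3.96 and 4.15 CPM with Kuiyangling, against 17.3 and 15.7 CPM in the DSS model, with the animals of each group close together, and its sequence is close to that of its paralog Fam177a, so its counts are uncertain. Rsad1, a radical SAM domain protein, stood at 17.1 and 13.9 CPM with Kuiyangling, against 4.28 and 4.97 CPM in the DSS model. Glt1d1, a glycosyltransferase-like gene, stood at 6.00 and 6.91 CPM with Kuiyangling, against 2.83 and 1.99 CPM in the DSS model. Cyp4b1, a cytochrome P450, stood at 44.3 and 42.8 CPM with Kuiyangling, against 10.5 and 22.7 CPM in the DSS model. Ankrd37, a target of hypoxia-inducible factors, stood at 52.7 and 34.4 CPM with Kuiyangling, against 24.2 and 17.4 CPM in the DSS model. The hypoxia and glycolysis list as a whole had 10 of 20 estimates above 0. Hk2, a hexokinase of that list, stood at 260.1 and 233 CPM with Kuiyangling, against 395 and 342 CPM in the DSS model. Bnip3, a mitochondrial target of hypoxia-inducible factors, stood at 44.8 and 38.7 CPM with Kuiyangling, against 26.0 and 34.0 CPM in the DSS model. The somatostatin receptor gene Sstr1 stood at 44.2 and 61.6 CPM with Kuiyangling, against 20.1 and 27.1 CPM in the DSS model.

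Stromal genes stood higher with Kuiyangling. Col3a1, a fibrillar collagen of fibroblasts, stood at 83.9 and 67.8 CPM with Kuiyangling, against 25.0 and 39.1 CPM in the DSS model. Col1a1, a chain of collagen I, had 380 and 396 counts with Kuiyangling, against 238 and 120 counts in the DSS model. Its partner chain Col1a2 stood at 44.4 and 35.9 CPM with Kuiyangling, against 17.0 and 21.2 CPM in the DSS model. Lox, which crosslinks collagen, stood at 4.39 and 2.23 CPM with Kuiyangling, against 0.818 and 1.06 CPM in the DSS model. Elastin, Eln, stood at 4.33 and 2.23 CPM with Kuiyangling, against 0.755 and 0.928 CPM in the DSS model. Smooth muscle transcripts stood higher too, with the myosin Myh11 at 9.53 and 9.76 CPM with Kuiyangling, against 0.818 and 2.92 CPM in the DSS model and the light chain Myl9 at 11.2 and 10.0 CPM with Kuiyangling, against 2.64 and 4.57 CPM in the DSS model. Actg2, the enteric smooth muscle actin, stood at 3.34 and 3.89 CPM with Kuiyangling, against 1.26 and 1.13 CPM in the DSS model. Acta2, which myofibroblasts also make, stood at 17.1 and 16.2 CPM with Kuiyangling, against 3.71 and 10.7 CPM in the DSS model. The endothelial adhesion gene Pecam1 stood at 7.55 and 5.14 CPM with Kuiyangling, against 1.76 and 2.92 CPM in the DSS model, a log2 change of 1.44 (SE 0.45). Plvap, a protein of fenestrated capillaries, stood at 12.1 and 6.70 CPM with Kuiyangling, against 3.02 and 4.97 CPM in the DSS model. Von Willebrand factor, Vwf, stood at 3.59 and 2.18 CPM with Kuiyangling, against 1.70 and 0.862 CPM in the DSS model. None of these 12 genes overlapped, and DSS model 1 was the lowest animal in all of them but Col1a1, Actg2 and Vwf. Controls held 2.48 and 2.71 CPM of Pecam1 and 13.7 and 3.64 CPM of Col3a1.

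Of 27 tested matrix and collagen genes 25 had estimates above 0, 21 without overlap and 5 at an unadjusted p under 0.05, with a median of 0.86. All 12 tested smooth muscle genes were above 0, 9 without overlap and 3 at an unadjusted p under 0.05, with a median of 1.10. Endothelial genes had 14 of 15 above 0, 9 without overlap and 1 at an unadjusted p under 0.05, with a median of 0.99. After the length correction the medians of the matrix, smooth muscle and endothelial lists were 0.73, 1.22 and 0.93. Without DSS model 1, the lower animal in most of these genes, the medians were 0.46, 0.64 and 0.50, and without DSS model 2 they were 1.21, 1.64 and 1.46. On log2(FPKM + 1) they were 0.54, 0.68 and 0.28. The summed level of the matrix list was 504 and 416 CPM with Kuiyangling, against 203 and 326 CPM in the DSS model. Whether the samples held unequal amounts of tissue below the mucosa was not tested.

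Proteases that degrade matrix were high in DSS model 2. Mmp13, a collagenase, stood at 17.9 and 12.9 CPM with Kuiyangling, against 20.4 and 84.5 CPM in the DSS model. Mmp3, stromelysin 1, stood at 4.46 and 2.91 CPM with Kuiyangling, against 8.30 and 28.2 CPM in the DSS model. Mmp10, a related stromelysin, stood at 10.2 and 9.29 CPM with Kuiyangling and 9.18 and 34.4 CPM in the DSS model, with Kuiyangling and DSS model 1 at like levels. Of 20 metalloproteinases and inhibitors 18 were tested, 12 with estimates below 0, with 3 lower and 1 higher at an unadjusted p under 0.05. The higher one was stromelysin 3, Mmp11, at 0.681 and 0.623 CPM with Kuiyangling, against 0.252 and 0.0663 CPM in the DSS model. Their median was -0.50, and 0.24 without DSS model 2.

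Markers of other cell types that a mucosal sample can hold were mostly few or near the floor. Enteric neuron and glia genes had 4 of 18 tested, with the neural adhesion gene Ncam1 at 1.18 and 1.09 CPM with Kuiyangling, against 0.126 and 0.332 CPM in the DSS model. Snap25, of synaptic release, overlapped, at 2.41 and 1.30 CPM with Kuiyangling and 1.01 and 1.39 CPM in the DSS model. Of 12 adipocyte genes 8 were tested, 5 above 0, with a median of 0.23, which was -0.26 without Kuiyangling 1 and 0.053 without DSS model 1. Pparg, a factor that colonocytes also make, stood at 215 and 189 CPM with Kuiyangling, against 148 and 156 CPM in the DSS model. Car3, a carbonic anhydrase of fat and muscle, stood at 0.867 and 0.727 CPM with Kuiyangling, against 1.89 and 1.46 CPM in the DSS model. Cfd, the fat cell protease adipsin, had 0 counts with Kuiyangling and 40 and 2 counts in the DSS model, at least 16.0-fold lower at a floor of 3 counts over the group, a difference that came from DSS model 1. Squamous genes, which would mark the anal end, had 3 of 16 tested, with Sbsn at 3.09 and 2.23 CPM with Kuiyangling, against 1.13 and 1.99 CPM in the DSS model and the basal keratin Krt15 at 0.928 and 0.883 CPM with Kuiyangling, against 0.881 and 0.663 CPM in the DSS model. Krt14, the basal keratin of skin, stood at 0.433 and 0.727 CPM with Kuiyangling, against 0.818 and 0.729 CPM in the DSS model. Of 14 erythroid and skeletal muscle genes 8 were tested, 3 above 0, with a median of -0.04 and none at an unadjusted p under 0.05. That median was -0.26 without Kuiyangling 1, 0.19 without Kuiyangling 2, -0.56 without DSS model 1, 1.03 without DSS model 2 and 0.35 after the length correction. The haemoglobin gene Hba-a1 overlapped, at 20.5 and 12.0 CPM with Kuiyangling and 5.85 and 22.2 CPM in the DSS model. Its near-identical copy Hba-a2 overlapped too, at 4.77 and 5.19 CPM with Kuiyangling and 2.39 and 9.08 CPM in the DSS model, and reads could be split between them. Tnni2, a troponin of fast muscle, stood at 0.619 and 0.779 CPM with Kuiyangling, against 0.440 and 0.597 CPM in the DSS model. Eosinophil and mast cell genes had 5 of 15 tested and a median of -0.52, which was -0.82 without Kuiyangling 1, -0.27 without Kuiyangling 2 and -0.32 after the length correction. The mast cell receptor Kit overlapped, at 28.3 and 22.3 CPM with Kuiyangling and 22.6 and 20.0 CPM in the DSS model. The eosinophil receptor chain Il5ra stood at 2.85 and 4.05 CPM with Kuiyangling, against 2.70 and 2.45 CPM in the DSS model.

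Immediate early genes, which respond to stress and handling within minutes, had 6 of 21 estimates above 0, none at an unadjusted p under 0.05, and a median of -0.20. It was -0.39 without Kuiyangling 1, 0.030 without Kuiyangling 2 and -0.12 without DSS model 2. Fosl1 stood at 2.48 and 2.23 CPM with Kuiyangling, against 3.46 and 6.50 CPM in the DSS model. Fosb stood at 2.23 and 1.25 CPM with Kuiyangling, against 0.692 and 0.332 CPM in the DSS model. Klf2, a factor of endothelium and T cells, stood at 2.48 and 1.92 CPM with Kuiyangling, against 4.21 and 4.57 CPM in the DSS model.

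Genes of protein folding in the endoplasmic reticulum stood lower. Hspa5, the chaperone also known as BiP, stood at 334 and 411 CPM with Kuiyangling, against 723 and 563 CPM in the DSS model, a log2 change of -0.79 (SE 0.28). Creld2 stood at 31.4 and 34.1 CPM with Kuiyangling, against 68.0 and 71.1 CPM in the DSS model. The chaperone Hyou1 stood at 54.2 and 70.5 CPM with Kuiyangling, against 152 and 85.8 CPM in the DSS model. Calr, a calcium-binding chaperone, stood at 487 and 522 CPM with Kuiyangling, against 1193 and 617 CPM in the DSS model. All 4 genes had both treated animals below both untreated ones and at or near the control level, which was 406 and 365 CPM for Hspa5. Of 22 genes 17 had estimates below 0, 15 without overlap and 7 at an unadjusted p under 0.05, with a median of -0.68, or -0.57 after the length correction. It stayed between -0.77 and -0.52 when any 1 library was left out.

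Subunits of oxidative phosphorylation stood lower by a small amount. All 32 tested genes had estimates below 0 and 26 did not overlap, with none at an unadjusted p under 0.05 and a median of -0.47. Sdhc, of complex II, stood at 256 and 235 CPM with Kuiyangling, against 348 and 330.3 CPM in the DSS model. Uqcrc1, of complex III, stood at 350.5 and 331 CPM with Kuiyangling, against 545 and 433 CPM in the DSS model. Ndufb6, of complex I, stood at 78.5 and 77.2 CPM with Kuiyangling, against 109 and 134 CPM in the DSS model. Treated animals differed by little in each of the 3. After the length correction the median of the 32 genes was -0.14, and without DSS model 2 it was -0.30. Ribosomal protein genes had 87 of 99 estimates below 0 but only 4 without overlap below, with a median of -0.21. They took 5.31% and 5.03% of counts with Kuiyangling, and 4.14% and 6.68% in the DSS model.

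**Figure D5:**
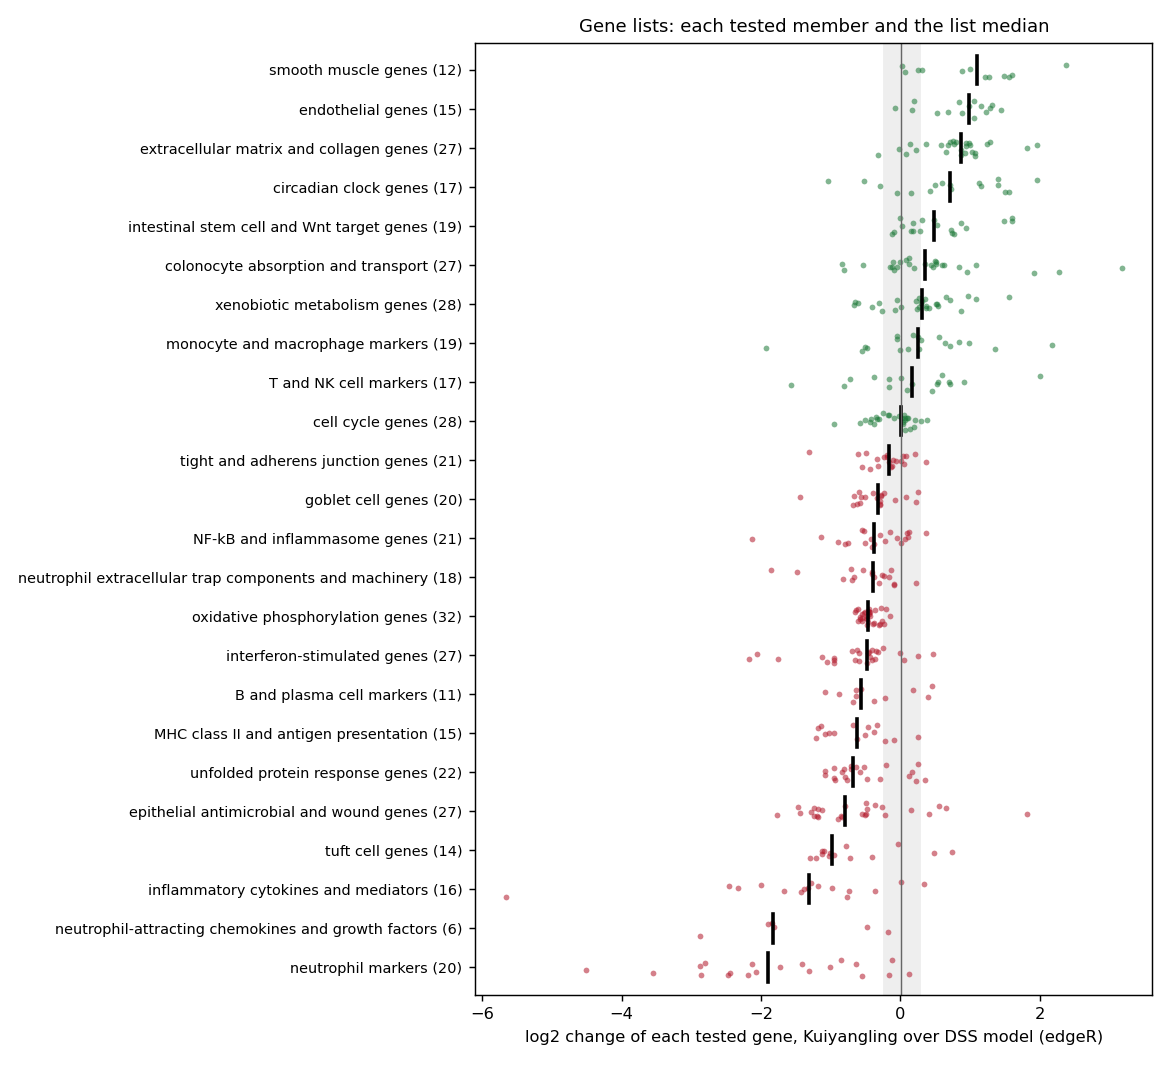
Log2 change of each tested gene (points), Kuiyangling over the DSS model, for 24 gene lists, with the number of tested genes in brackets and the list median as a black bar. The grey band runs between the quartiles of all tested genes. Lists with a median above 0 are green, from smooth muscle at 1.10 downwards, and those below 0 are red, to neutrophil markers at -1.90.

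Kuiyangling and mesalazine were compared in the same fit. None of the 13381 genes was called (0%), and 254 had an unadjusted p under 0.05 (1.9%). Both treatments are set against the same DSS model animals, so their levels are given side by side. Cxcl2 stood at 2.17 and 0.935 CPM with Kuiyangling and 3.26 and 2.80 CPM with mesalazine, and Csf3r at 0.619 and 0.260 CPM with Kuiyangling and 0.283 and 0.584 CPM with mesalazine. Tnf stood at 4.27 and 3.37 CPM with Kuiyangling and 3.61 and 2.63 CPM with mesalazine, and Socs3 at 43.5 and 34.1 CPM with Kuiyangling and 59.5 and 37.1 CPM with mesalazine. Cxcl2 was lower with Kuiyangling without overlap, at an unadjusted p of 0.064 and an adjusted p of 0.999 by edgeR. The share of all genes without overlap was not counted between the treatments. The other 3 genes overlapped between the treatments.

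Another 3 of the genes described above are given with their unadjusted p between the treatments, chosen after their values were seen. Slc11a2 stood at 179 and 113 CPM with Kuiyangling and 44.9 and 85.9 CPM with mesalazine (log2 difference 1.16, unadjusted p = 0.0088). Depp1 had the smallest p of all genes, at 4.52 and 3.32 CPM with Kuiyangling and 23.3 and 11.3 CPM with mesalazine (log2 difference -2.14, unadjusted p = 0.00085 and adjusted p = 0.999 by edgeR). Cxcl5 stood at 4.21 and 3.58 CPM with Kuiyangling and 1.42 and 1.17 CPM with mesalazine (log2 difference 1.59, unadjusted p = 0.009). Reg3g overlapped, at 1822 and 795 CPM with Kuiyangling and 8502 and 1177 CPM with mesalazine. Mesalazine 1 was the highest library in Reg3g and also in its share of ribosomal protein counts, at 12.7%.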

How the data were processed

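RNA was extracted with the mirVana kit and libraries were made with the TruSeq Stranded mRNA kit, per the labels' protocols. The submitters' processing notes name Trimmomatic and HISAT2; the genome build, the annotation, the counting tool and its strand setting are not given in the sources used here. The authors deposited raw counts per gene and FPKM for 17353 genes in all 8 libraries, and each gene's deposited FPKM imply 1 length in every library, which served as the gene length. The gene lists, the rule for naming genes and the comparison itself were chosen with earlier results of these data known.

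Counts were fitted for all 8 libraries together with edgeR 4.0.16 in R 4.3.3 (TMM scaling, filterByExpr, quasi-likelihood F test, common biological coefficient of variation 0.287), and p-values were adjusted by Benjamini-Hochberg over 13381 genes, with a threshold of 0.05. Replicates are separate animals, 2 per group. Named genes are the 15 of each direction with the smallest p among those without overlap and with a mean of at least 5 CPM in the higher group, up to 3 members of each list with the smallest p, and a fixed panel; some of these genes are not reported here. Other members of the lists, and Batf2, Cd14, Gsdmc2, Gsdmc3, Gsdmc4, Hoxb13, Ifi27l2a, Ifitm3, Iigp1, Npc1l1, Phf11d, Slc10a2, Slc37a2, Slc40a1, Slc51b, Slc6a20a, Socs1 and Ugt8a, were named after their values were seen. Log2 changes from edgeR are the estimates of its fit at its default prior count. A prior count of 2 entered only the log2 CPM used for the length correction and for correlations. Each SE is the absolute log2 change divided by the square root of the F statistic of the test. Alternatives were RLE scaling, DESeq2 1.42.0, no filter, only the 4 libraries compared, a replicate block, a length correction (a lowess fit per library), limma 3.58.1 on log2(FPKM + 0.1) or log2(FPKM + 1), and leaving out each library. The length correction on the 4 libraries alone or with a library left out was added after seeing the data. The main fit did not use the replicate numbers to pair the animals. The intervals and floors given cover the error of counting and no other.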

Additional observations from a re-analysis of the deposited data

How the results depend on the processing

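No gene was called between Kuiyangling and the DSS model with RLE scaling, the length correction, limma on FPKM or any left-out library, whereas DESeq2 called 13, edgeR without the filter 11 and edgeR on only the 4 libraries 21; against mesalazine, edgeR without the filter called 3 and all other settings 0. The fit of the 4 libraries takes its spread from fewer samples, and the cause of the other differences was not tested. With the length correction, the 4 libraries alone gave 0 calls. The numbers of genes higher and lower at an unadjusted p under 0.05, 265 and 211, were 786 and 677 with only the 4 libraries, 399 and 319 without the filter, 329 and 154 on log2(FPKM + 0.1), and 492 and 210 on log2(FPKM + 0.1) without the filter. Without a Kuiyangling or DSS model library the higher genes numbered between 103 and 254 and the lower ones between 96 and 181, and without a mesalazine library they numbered 524 or 546 higher and 544 or 514 lower. Deposited FPKM moved the median of all genes by 0.14 and put 65.9% of estimates above 0.

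The replicate numbers do not pair the animals, since the deviations of same-numbered Kuiyangling and DSS model libraries correlated at 0.008. With the replicate block edgeR called 0 genes, and 244 were higher and 192 lower at an unadjusted p under 0.05.

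On log2(FPKM + 1) the list medians were nearer to 0 than with edgeR for several lists, with -0.57 for neutrophil markers, -0.66 for neutrophil-attracting chemokines, -0.53 for cytokines, -0.13 for trap genes, -0.36 for tuft cell genes and 0.28 for endothelial genes.

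Of 190 named genes tested, 21 changed sign in some alternative, 47 of 4362 values in all, and most of the 21 overlapped between the groups. Over the left-out libraries Il11 ranged between -1.68 and 0.40, Mmp10 between -1.82 and 0.084, Cybb between -0.74 and 0.011, Phf11d between -1.49 and 0.17, Hoxb13 between -0.44 and 2.28, Creb3l1 between -1.12 and 0.14, Hba-a1 between -0.45 and 1.47, Hba-a2 between -0.87 and 1.05, Jchain between -1.47 and 0.11, Mcm7 between -0.024 and 0.93, Mki67 between -0.42 and 0.61, Ptgs2 between -1.39 and 0.50, Sct between -0.097 and 0.87, Slc26a3 between -0.047 and 0.87, and Tff3 between -1.08 and 0.056. With the length correction and without DSS model 2, Il11 gave 0.42, Mmp10 0.15, Hba-a2 1.23, Jchain 0.16 and Ptgs2 0.44. With it and without DSS model 1, Creb3l1 gave 0.29, Sst 0.16, Tff3 0.26, Cyba 0.20 and Mki67 -0.46. With it and without Kuiyangling 2, Hoxb13 gave -0.37, Phf11d 0.20, Hba-a2 0.036, Saa3 0.23, Slc26a3 -0.048, Tff3 0.25 and Mki67 -0.57. With it and without Kuiyangling 1, Hba-a2 gave 0.45, Kit -0.098, Krt14 0.10 and Plk1 0.031. With all libraries, Hba-a2 gave 0.26 with the length correction, 0.32 with the replicate block added to it, 0.28 with it on the 4 libraries, 0.23 on log2(FPKM + 0.1) with and without the filter, and 0.17 on log2(FPKM + 1). Mki67 gave -0.074 with the length correction, -0.073 with the replicate block added to it and -0.077 with it on the 4 libraries. At this depth, genes under the floor of 3 counts allow no comparison, which holds for several granule genes of extracellular traps.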
